A study of Mus musculus with 72 samples.

Results

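The genes described here encode chemokine ligands, the small secreted proteins that direct the movement of leukocytes. They were taken by symbol: every gene on the array whose annotated symbol begins with Ccl, Cxcl, Cx3cl or Xcl followed by a digit. This gave 38 of the 19505 genes tested, read by 39 probe sets, and all 38 carried the same symbol in the mouse gene reference. Expression was measured in hearts of female CB6F1/Hsd mice that were 100 to 120 days old when supplied and were kept for 16 months after a single whole-body exposure, on 72 Clariom S Mouse arrays with 1 heart each. The exposed groups were 137Cs-IR (γ-rays, the low linear energy transfer radiation) at 40, 80, 120 and 160 cGy, 14Si-IR (silicon ions) at 4, 8, 16 and 32 cGy, and 22Ti-IR (titanium ions) at 3, 6.5, 13 and 26 cGy. Each radiation type had its own sham group, held in the same plastic holders without irradiation. The 160 cGy Cs, 6.5 cGy Ti and Si sham groups held 4 hearts and the other 12 groups held 5. The hearts were archived tissue of animals without tumors, so the groups show late survivors and not the acute response to exposure.

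Chemokines are named for the spacing of their first cysteines (CC, CXC, CX3C and XC) and act on G protein-coupled receptors of leukocytes. Some are made steadily, such as Cxcl12, which holds cells that carry CXCR4, whereas the inflammatory ligands are induced by cytokines and draw monocytes, neutrophils, eosinophils or lymphocytes into tissue. In the heart they are best known from infarction, where ligands of CCR2 bring in monocytes and ligands of CXCR2 bring in neutrophils. Many ligands arose by gene duplication and lie side by side. Of the 38 genes, 12 were on chromosome 11 and 11 on chromosome 5. Among protein-coding genes, Ccl2, Ccl7, Ccl11, Ccl12, Ccl8 and Ccl1 followed each other without a gap on chromosome 11, as did Ccl5, Ccl9, Ccl6, Ccl3 and Ccl4. On chromosome 5, Cxcl3, Cxcl15, Cxcl1 and Cxcl2 formed such a run.

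Of the 5 ligands called against sham hearts in at least 1 comparison, Cxcl1 and Cxcl3 are near neighbors that attract neutrophils through the same receptor. Both were called at Ti 6.5 cGy alone, where 7.89% of the ligands were called, beside 5.6% of all genes. Both calls were lost without 1 exposed heart, replicate 3 (limma adjusted p = 0.306 for Cxcl1 and 0.272 for Cxcl3). With all hearts, Cxcl1 and Cxcl3 were called in opposite directions in the same hearts, as described below. Their promoters are shown for this reason, 300 bases each that end just after the start site (RefSeq, build GRCm38.p6, both on the plus strand, Cxcl1 at chr5:90890995-90891294 and Cxcl3 at chr5:90785851-90786150). Capitals mark matches to 2 motifs searched on both strands, the NF-κB letters (GGG, any 3 bases, TTCC) and CACGTG, the E-box bound by clock and other helix-loop-helix factors.
Cxcl1 promoter: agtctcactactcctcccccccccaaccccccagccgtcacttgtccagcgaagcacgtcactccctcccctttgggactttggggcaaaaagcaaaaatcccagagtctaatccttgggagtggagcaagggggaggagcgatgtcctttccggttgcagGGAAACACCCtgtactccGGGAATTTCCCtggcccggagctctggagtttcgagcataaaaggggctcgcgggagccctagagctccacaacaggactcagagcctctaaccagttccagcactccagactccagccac
Cxcl3 promoter: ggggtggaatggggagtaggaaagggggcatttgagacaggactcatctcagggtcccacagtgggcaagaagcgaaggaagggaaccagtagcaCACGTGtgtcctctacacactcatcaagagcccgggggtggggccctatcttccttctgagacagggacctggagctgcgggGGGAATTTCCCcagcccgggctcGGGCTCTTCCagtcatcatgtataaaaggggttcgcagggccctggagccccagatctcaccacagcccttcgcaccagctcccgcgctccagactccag
Both promoters held the same 11 letters, GGGAATTTCCC, in which the NF-κB letters match once on each strand and the 2 matches overlap. Each held a further match, at -89 from the start site in Cxcl1 and at -50 in Cxcl3, and CACGTG occurred in Cxcl3 but not in Cxcl1. A promoter entry was at hand for 26 of the 38 ligands. The NF-κB letters were found in 7 of these 26 (Ccl1, Ccl20, Ccl9, Cxcl1, Cxcl10, Cxcl2 and Cxcl3), against 5.56% of all 32851 promoters of the same length. CACGTG was found in 1 of the 26, Cxcl3, against 7.15% of all promoters. The STAT letters TTCNNNGAA were found in 2 of the 26, Ccl17 and Cxcl14, against 8.3%. Ligands were counted per gene, with a match in any of its entries, and all promoters per entry, so these shares differ in unit. Of the 7, Cxcl1, Cxcl2 and Cxcl3 lie in the same run of neighbors. A match describes letters only.

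The arrays were run in 2 batches named in the labels, and batch was a term in every fit. On the component that separates the batches, Cs 160 cGy replicate 4 (score 15.02) and Ti 6.5 cGy replicate 3 (20.5), both labelled batch 1, lay among the batch 2 arrays (4.06 to 26.6) and not among the other batch 1 arrays (-22.1 to -4.23). Results that rest on them are given with and without them. The Cs 160 cGy group had no array in batch 2 and the Si sham group none in batch 1. Between batch 2 and batch 1, 24 of the 38 ligands differed (7 higher, 17 lower, 63.2%), beside 65.2% of all genes (33.4% higher, 31.9% lower). Ligand levels with a marked batch difference were those of Cxcl12 (+0.44 on the log2 scale), Cxcl9 (+0.51), Ccl6 (-0.47), Ccl9 (-0.67) and Cxcl13 (-1.04), whereas Ccl11 differed by -0.07 (limma adjusted p = 0.509). Cardiomyocyte transcripts identified the tissue: all 6 ventricular markers examined exceeded the 90th percentile of the negative controls on every array.

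The first question was which ligands could be read at all. The array carries 5222 negative control probe sets, and in the values as deposited 23 of the 38 ligands lay above their median on all 72 arrays, which is 60.5%, beside 67.1% of all genes. A further 7 did so on at least 90% of the arrays and 8 on fewer. Against the stricter 90th percentile of the negative controls, 8 ligands lay above it on all 72 arrays (Cxcl12, Ccl21a, Ccl21b, Ccl21c, Cxcl16, Cxcl14, Ccl6 and Cxcl3), 15 on some and 15 on none. The 15 that never exceeded it included the macrophage inflammatory proteins Ccl3 and Ccl4, the neutrophil attractants Cxcl2, Cxcl5 and Cxcl15, and the interferon-induced Cxcl10 and Cxcl11. Cxcl11 stayed at or below the negative control median on every array of the Ti 3 and Ti 6.5 cGy groups, and Cxcl15 on every array of the Si 4 cGy group, so these groups have only an upper bound for those genes.

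**Figure D1:**
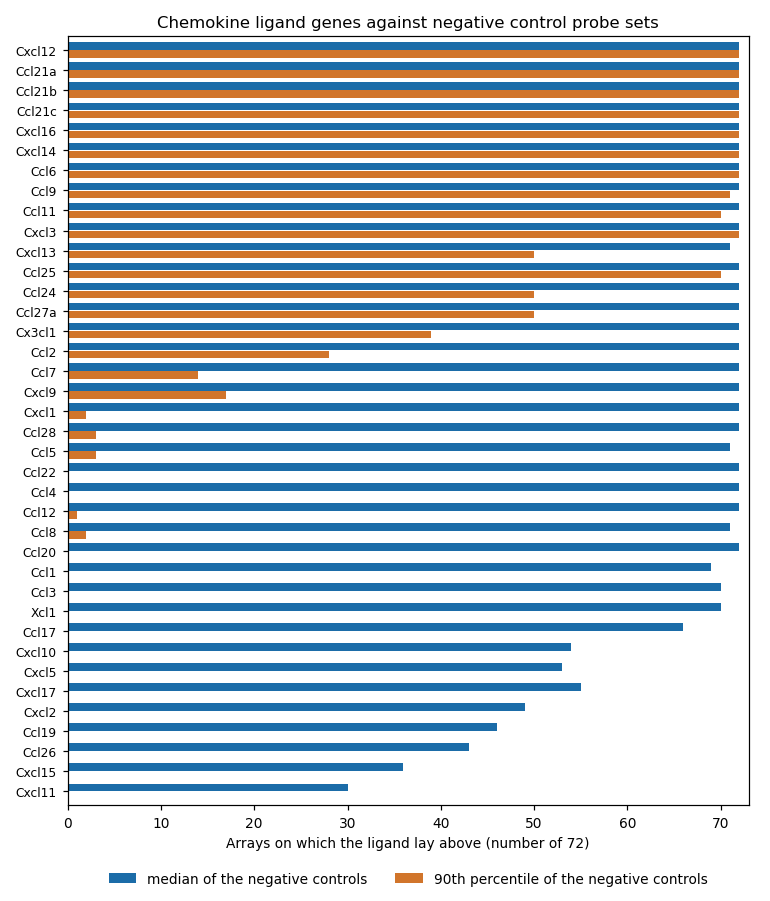
Number of the 72 arrays (horizontal axis) on which each of the 38 ligand genes (vertical axis) lay above the median (blue) or the 90th percentile (orange) of the negative control probe sets of the same array. The blue bars reach 72 for 23 ligands and the orange bars for 8, and 15 ligands have no orange bar.

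The levels of the ligands with the highest mean are given first. Cxcl12, which retains CXCR4-bearing cells, had batch-adjusted group means of at most 9.01, in Si 32 cGy hearts, and at least 8.79, in Cs sham hearts, with a spread within groups and batches of 0.13 (SD, log2 scale as for all levels here). Cxcl16, a membrane-bound ligand of CXCR6, ran from 7.18 in Si 8 cGy to 7.54 in Cs 80 cGy hearts, with a within-group SD of 0.18. Cxcl14 ran from 6.70 in Si 16 cGy to 7.19 in Cs 80 cGy hearts (SD 0.22). None of these passed the test against sham at any dose, although Cxcl14 (+0.32, SE 0.11) and Cxcl16 (+0.31, SE 0.11) were above every sham heart in all 5 Cs 80 cGy hearts (limma adjusted p = 0.475 and 0.513). Overlap with sham hearts was looked at for the ligands alone, over 456 comparisons, and the share of all genes without overlap was not counted. Here and below, groups that do not overlap are thus a description and not a test. Ccl21a, Ccl21b and Ccl21c encode near-identical ligands of CCR7 that guide lymphocytes and dendritic cells. The kept Ccl21b probe set and that of Ccl21c had the same value on 72 of 72 arrays and Ccl21a followed them (r = 0.93), so the 3 genes cannot be told apart, although every count here takes them as 3 of the 38. That signal had batch-adjusted group means of 7.68 to 8.03 for Ccl21b and Ccl21c, and 7.77 to 8.03 for Ccl21a.

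In 137Cs-exposed hearts Ccl11 was called at 3 of the 4 doses. Ccl11, or eotaxin, attracts eosinophils through CCR3 and is made largely by fibroblasts and other stromal cells. Its level was 6.90, 6.50, 7.16, 7.02 and 7.08 in the 5 Cs 80 cGy hearts and 7.25, 6.52, 6.88 and 7.06 in the 4 Cs 160 cGy hearts, against 5.36, 6.14, 6.15, 6.24 and 5.92 in Cs sham hearts. All 9 exposed hearts lay above the highest sham heart. The 5 Cs 120 cGy hearts had 6.23, 7.02, 6.73, 6.57 and 6.61, of which 4 lay above the sham range. The 5 Cs 40 cGy hearts had 6.62, 6.24, 6.44, 6.13 and 6.45, and 3 of them lay above it.

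In the fit of the 24 Cs arrays, Ccl11 was higher by 0.97 at 80 cGy (SE 0.17, 1.96-fold, limma adjusted p = 0.047), by 0.67 at 120 cGy (SE 0.17, 1.59-fold, limma adjusted p = 0.193) and by 0.98 at 160 cGy (SE 0.19, 1.98-fold, limma adjusted p = 0.0261) than in sham hearts. These 3 passed the study's threshold, an adjusted p under 0.25 over all genes. At 40 cGy the difference was +0.41 (SE 0.17) and did not pass (limma adjusted p = 0.913). Ccl11 was the only one of the 38 ligands called at 80, 120 or 160 cGy, which is 2.63% of them at each dose, beside 0.482%, 0.682% and 6.91% of all genes. At an unadjusted p under 0.05 there were 3, 7, 6 and 4 ligands at 40, 80, 120 and 160 cGy. These were 7.89%, 18.4%, 15.8% and 10.5% of the ligands, beside 5.12%, 6.87%, 8.04% and 13.2% of all genes. A fit of the 24 Cs arrays on dose as a straight line gave a slope of 0.00568 per cGy for Ccl11 (SE 0.0012, limma adjusted p = 0.0549), and it was the only ligand called there, beside 1.55% of all genes. The curved fit (cubic B-spline) called Ccl11 (limma adjusted p = 0.0613), Ccl2 (0.191) and Ccl7 (0.247), beside 4.09% of all genes. With each of the 24 hearts left out in turn, Ccl2 kept this call in 20 fits and Ccl7 in 3 (limma adjusted p up to 0.306 and 0.375). At an unadjusted p under 0.05 there were 3 ligands (7.89%) in the line fit and 8 (21.1%) in the spline fit, beside 10.5% and 12.1% of all genes. Ccl2 and Ccl7 attract monocytes through CCR2 and lie next to each other. Ccl2 averaged 5.75 ± 0.18 at 40 cGy and 5.31 ± 0.19 at 120 cGy (SD, n = 5 each), with 5.54 ± 0.15 in sham hearts (n = 5).

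The 2 calls of Ccl11 at 80 and 160 cGy held whichever single heart was left out, with adjusted p up to 0.242 at 80 cGy and 0.0942 at 160 cGy. The call at 120 cGy held in 5 of 10 such fits, and was lost without Cs sham replicate 1 or 5 or Cs 120 cGy replicate 2, 3 or 4 (limma adjusted p up to 0.419). Cs sham replicate 1 was the lowest heart: without it the difference was 0.82 at 80 cGy and 0.80 at 160 cGy. Without the 2 arrays that lay with the other batch, the 160 cGy difference was 0.94 (limma adjusted p = 0.0544). Within batch 1 the differences were 0.97, 0.78 and 1.04 at 80, 120 and 160 cGy, and within batch 2 they were 0.97 and 0.51 at 80 and 120 cGy. In the smaller within-batch fits the call held only at 80 cGy in batch 2. On the values as deposited, without the second normalization, the differences were 1.05, 0.44 and 0.55 at 80, 120 and 160 cGy, and none was called (limma adjusted p = 0.469, 0.79 and 0.368).

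**Figure D2:**
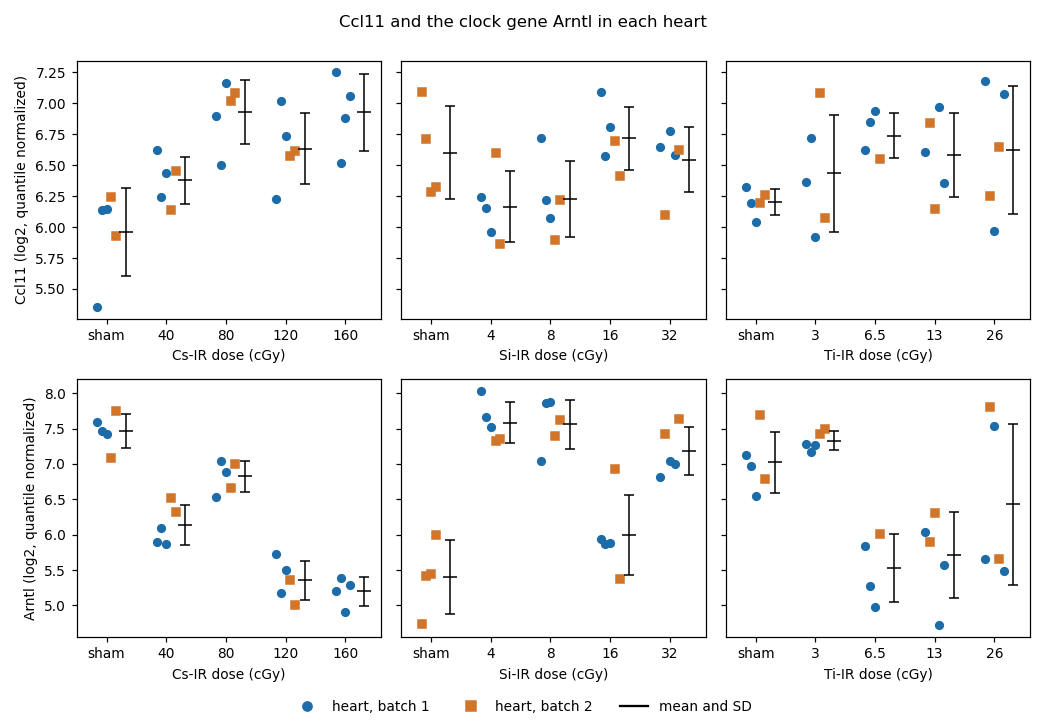
Level of Ccl11 (top row) and of the clock gene Arntl (bottom row) in each heart (vertical axes, log2 signal after quantile normalization) against dose in cGy, with sham at the left, for 137Cs-IR, 14Si-IR and 22Ti-IR. Blue circles are batch 1 and orange squares batch 2, and bars give the mean and SD. Every Ccl11 point at 80 and 160 cGy of Cs-IR lies above the sham points. The group means of Arntl and Ccl11 tend to lie at opposite ends, but at 80 cGy of Cs-IR, where Ccl11 is high, Arntl is highest among the exposed Cs groups.

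Ccl11 was then followed in the other exposures. In Si-exposed hearts the Ccl11 level averaged 6.16 ± 0.29 for 4 cGy, 6.22 ± 0.31 for 8 cGy, 6.72 ± 0.26 for 16 cGy and 6.54 ± 0.26 for 32 cGy (SD, n = 5 each), with 6.6 ± 0.38 in Si sham hearts (n = 4). The differences at 4 and 8 cGy were -0.55 (SE 0.20) and -0.49 (SE 0.20) and did not pass (limma adjusted p = 0.672 and 0.859). In Ti-exposed hearts all 4 hearts at 6.5 cGy, with 6.62, 6.85, 6.94 and 6.55, lay above the 5 Ti sham hearts, with 6.32, 6.20, 6.04, 6.20 and 6.26. That difference of +0.52 (SE 0.23) did not pass (limma adjusted p = 0.312). It passed with array medians aligned (+0.60, limma adjusted p = 0.234) and on the values as deposited (+0.88, limma adjusted p = 0.0641). Ccl11 averaged 6.43 ± 0.47 at 3 cGy, 6.58 ± 0.34 at 13 cGy and 6.62 ± 0.52 at 26 cGy (SD, n = 5 each), with 6.20 ± 0.10 in Ti sham hearts (n = 5), so each Ti mean lay above sham. The mean effect of exposure over 4 doses was tested between radiation types in a fit of all 72 arrays. The Cs doses all lay above the Si and Ti doses, so radiation type and dose cannot be told apart in a contrast with Cs. For Ccl11 the Cs effect exceeded the Si effect by 0.98 (SE 0.23, limma adjusted p = 0.0307), the only ligand to differ there, beside 2.2% of all genes. On the values as deposited this contrast was 0.61 (limma adjusted p = 0.478). The Ccl11 Si effect minus the Ti effect was -0.62 (SE 0.24, limma adjusted p = 0.429). No ligand differed between Si and Ti or between Cs and Ti (2 and 0, or 5.26% and 0%, at an unadjusted p under 0.05, beside 8.11% and 7.4% of all genes, of which 0.779% and 0.0615% were called).

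The sham groups themselves were not alike in Ccl11. Cs sham hearts were lower than Si sham hearts by 0.68 (SE 0.21, limma adjusted p = 0.127). These sham levels enter the contrast of Cs and Si effects above. Without Cs sham replicate 1 this sham difference was -0.53 (limma adjusted p = 0.294), and it was also lost without Si sham replicate 1 (limma adjusted p = 0.324). Between Cs and Si sham hearts, Ccl17, a CCR4 ligand, was lower by 0.37 (SE 0.14) and Ccl25, a CCR9 ligand, was higher by 0.42 (SE 0.15), so that 3 of 38 ligands (7.89%) differed, beside 5.67% of all genes. With each of 9 sham hearts left out in turn, Ccl17 kept its call in 2 fits and Ccl25 in 5. Between Si and Ti sham hearts 4 ligands differed (10.5%, beside 6.35% of all genes): Ccl17 was higher by 0.42 (SE 0.14) in Si sham hearts, and Ccl3, Ccl9 and Xcl1 were lower by 0.48 (SE 0.18), 0.61 (SE 0.22) and 0.41 (SE 0.15). In 9 such fits the call was kept in 4 for Ccl17, 4 for Ccl3, 5 for Ccl9 and 6 for Xcl1. Ccl17, Ccl3 and Xcl1 lay close to background: each exceeded the 90th percentile of the negative controls on 0 of 72 arrays. On the values as deposited the Ccl11 sham difference was -0.04 (limma adjusted p = 0.901). No ligand differed between Cs and Ti sham hearts (0 at an unadjusted p under 0.05 too, beside 8.6% of all genes, of which 0.113% were called). Si sham hearts lay in batch 2 alone, so these differences depend on the batch term.

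Arntl, a core activator of the circadian clock, tended to be low in groups where Ccl11 was high, with Cs 80 cGy as an exception. In Cs hearts Arntl averaged 6.14 ± 0.28 at 40 cGy, 6.82 ± 0.22 at 80 cGy and 5.35 ± 0.28 at 120 cGy (SD, n = 5 each), and 5.20 ± 0.21 at 160 cGy (n = 4), with 7.46 ± 0.24 in Cs sham hearts (n = 5). The order within Cs hearts did not match: Ccl11 had its highest batch-adjusted group mean at 80 cGy (6.92), where Arntl was highest among the exposed Cs groups. In Si sham hearts, where Ccl11 was high, Arntl averaged 5.40 ± 0.52 (n = 4). Over the 15 group means, with batch removed, the correlation of Ccl11 with Arntl was -0.69, the most negative of the 38 ligands, followed by Cxcl12 (-0.55). These are descriptions over group means that share arrays and normalization, and Arntl was set beside the ligands after its values were known. The part of the clock state in the Ccl11 difference was not tested.

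Markers of cells that make or follow Ccl11 were set beside it. None of the 8 eosinophil and mast cell markers was called at any Cs dose, and their mean batch-adjusted level per heart was 3.88 to 4.34 at 80 cGy and 4.03 to 4.28 at 160 cGy, against 4.02 to 4.17 in Cs sham hearts. Of these 8, 6 exceeded the 90th percentile of the negative controls on no array, so the absence of a call shows little about these cells. Ccr3, the Ccl11 receptor, stayed at or below the negative control median on all 72 arrays. The fibroblast markers averaged 8.54 to 8.82 per heart at 80 cGy and 8.28 to 8.43 at 160 cGy, against 8.31 to 8.48 in Cs sham hearts, and 0 of 5 were called. The fibroblast marker level lay above the sham range in all hearts at 80 cGy and overlapped it at 160 cGy. So did the level of the neutrophil markers, given below. The macrophage markers averaged 5.94 to 6.48 at 80 cGy and 5.87 to 6.10 at 160 cGy, against 5.77 to 6.02 in Cs sham hearts, and 2 of 12 rose at 80 cGy, where 0.482% of all genes were called (Aif1 by 1.04 and Mpeg1 by 0.77, SE 0.27 and 0.20, limma adjusted p = 0.206 each). Aif1 exceeded the negative control median on 46 of 72 arrays and their 90th percentile on none. The neutrophil markers averaged 4.06 to 4.6 at 80 cGy and 3.81 to 3.98 at 160 cGy, against 3.80 to 3.99 in Cs sham hearts, and 1 of 5, S100a8, was called at 80 and at 120 cGy but exceeded the negative control median on only 13 of 72 arrays. At 120 cGy, where 0.682% of all genes were called, 1 of 4 B and plasma cell markers, Jchain, rose by 1.90 (SE 0.42, limma adjusted p = 0.0802). The list averaged 3.84 to 5.16 per heart there, against 3.46 to 4.01 in Cs sham hearts. At 80 cGy that list averaged 3.90 to 5.14, with none called. At 160 cGy, where 6.91% of all genes were called, the endothelial marker Cldn5 fell by 0.56 (SE 0.20, limma adjusted p = 0.217, 1 of 5). The ventricular marker Myl3 fell by 0.30 (SE 0.08, limma adjusted p = 0.0888, 1 of 6). Both list levels overlapped sham, and 4 of the 5 endothelial and 2 of the 6 ventricular markers had a positive difference. In whole heart tissue, more cells of a type and more RNA per cell cannot be told apart. The part of these cells in the Ccl11 difference was not tested. Of 12 inducing signals 1 was called at 160 cGy, beside the 6.91% of all genes. This was Il33, an alarmin upstream of eosinophil responses, which rose by 0.55 (SE 0.13, limma adjusted p = 0.0752). Its part in the Ccl11 difference was not tested. Ppbp, a platelet chemokine whose symbol lies outside the naming rule, rose by 1.9 at 80 cGy (SE 0.40, limma adjusted p = 0.0902).

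The ligand called at the lowest γ-ray dose was Ccl12, a mouse CCR2 ligand that attracts monocytes. Its level was 5.49, 5.23, 5.53, 4.66 and 5.36 in Cs 40 cGy hearts, against 4.38, 4.69, 3.69, 4.05 and 3.91 in Cs sham hearts. Of the 5 exposed hearts, 4 lay above the sham range. The difference of 1.11 (SE 0.27, 2.16-fold, limma adjusted p = 0.201) made it 1 of 38 ligands called at this dose (2.63%), beside 0.22% of all genes. Leaving out any of 8 of the 10 hearts, all but Cs sham replicate 2 and Cs 40 cGy replicate 4, removed the call (limma adjusted p 0.345 to 0.584), with differences of 0.95 to 1.21 over the 10 fits. Within batch 1 and batch 2 the difference was 1.16 and 1.03. Ccl12 lay close to background: the negative control median fell between 3.11 and 3.99 on this scale, and Ccl12 exceeded the 90th percentile of the negative controls on 1 of 72 arrays. At 80, 120 and 160 cGy Ccl12 averaged 4.56 ± 0.38, 4.62 ± 0.57 (SD, n = 5 each) and 4.52 ± 0.73 (n = 4), and these groups overlapped sham.

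**Figure D3:**
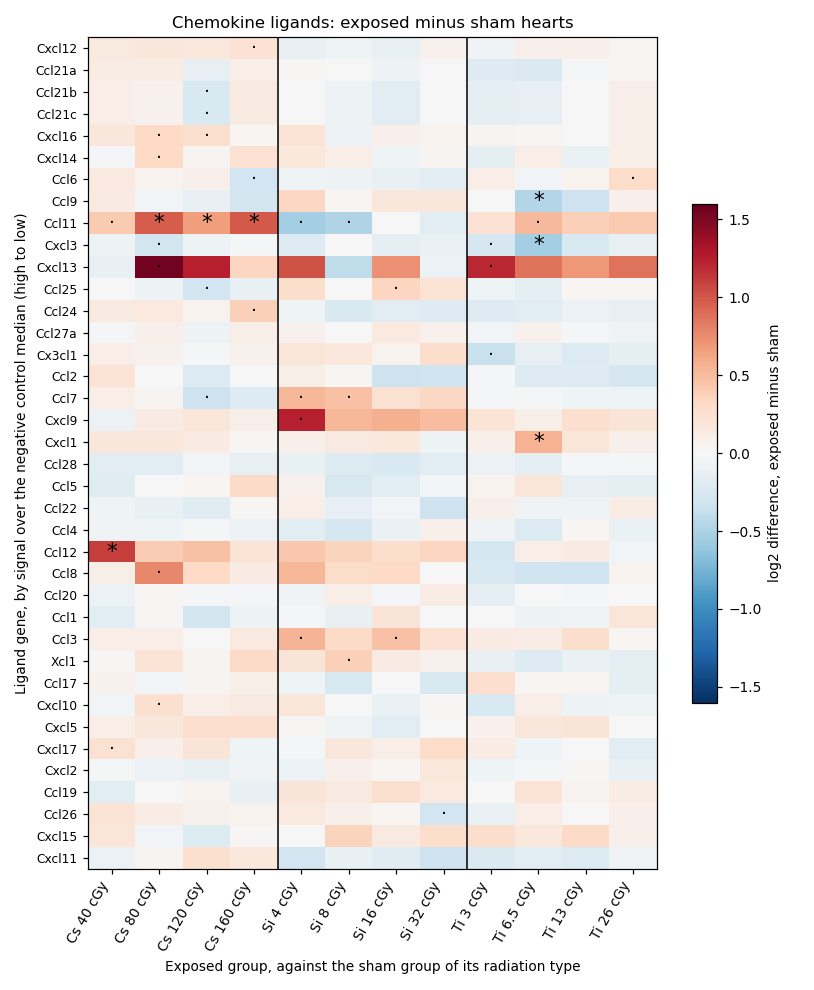
Log2 difference of each of the 38 ligands (rows, ordered by signal over the negative control median) between the exposed group named below each column and the sham hearts of its radiation type. Red is higher and blue lower in exposed hearts, a star marks an adjusted p under 0.25 and a dot an unadjusted p under 0.05; stars stand only at Ccl11 in Cs 80, 120 and 160 cGy, Ccl12 in Cs 40 cGy, and Ccl9, Cxcl3 and Cxcl1 in Ti 6.5 cGy.

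In 14Si-exposed hearts no ligand passed at any dose by limma. At an unadjusted p under 0.05 there were 4, 3, 2 and 1 ligands at 4, 8, 16 and 32 cGy, which is 10.5%, 7.89%, 5.26% and 2.63%, beside 6.49%, 5.16%, 4.49% and 6.41% of all genes. The share of all genes that did pass was 0.159%, 0.128%, 0.0205% and 0.0513%. The nearest to the threshold was Cxcl9, an interferon-induced ligand of CXCR3 that draws activated T cells. It measured 6.05, 5.44, 4.95, 7.54 and 5.55 in Si 4 cGy hearts, against 4.96, 5.17, 4.70 and 5.13 in Si sham hearts, a difference of +1.25 (SE 0.31, limma adjusted p = 0.303) that rested in part on replicate 4. Ccl7 had 5.32, 5.47, 5.86, 5.34 and 5.35 in Si 8 cGy hearts, against 5.18, 4.79, 4.86 and 5.16 in Si sham hearts. The groups did not overlap, but the difference of +0.47 (SE 0.21) did not pass (limma adjusted p = 0.928). Ccl3, an inflammatory ligand made by macrophages, differed by +0.55 at 4 cGy with all 5 hearts above the sham range (SE 0.16, limma adjusted p = 0.539), and Xcl1, the ligand of XCR1 on dendritic cells, by +0.38 at 8 cGy, again with all 5 above it (SE 0.13, limma adjusted p = 0.759). Both were also low in Si sham hearts beside Ti sham hearts, and both lay close to background, as given above. Median differences over the 38 ligands were 0.07, 0.01, 0.02 and 0.01 for the lowest to the highest dose.

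In 22Ti-exposed hearts calls were made at 6.5 cGy alone, where 3 of 38 ligands changed (7.89%), beside 5.6% of all genes. At 3, 13 and 26 cGy no ligand was called by limma. At an unadjusted p under 0.05 there were 3, 0 and 1 (7.89%, 0% and 2.63%), beside 8.93%, 8.51% and 7.08% of all genes, of which 0.0103%, 0.426% and 0% were called. At 6.5 cGy 4 ligands (10.5%) had an unadjusted p under 0.05, beside 14.1% of all genes. The line and spline fits on dose called no ligand for Ti, beside 0% and 1.06% of all genes, nor for Si, beside 0% and 0.267%. At an unadjusted p under 0.05 there were 2 and 2 ligands for Ti (5.26% each), beside 5.65% and 10.8% of all genes. For Si there were 3 and 4 (7.89% and 10.5%), beside 5.13% and 5.68%. Cxcl3 and Cxcl1 both draw neutrophils through CXCR2. Cxcl3 had 6.26, 6.25, 5.98 and 6.03 in Ti 6.5 cGy hearts, against 6.76, 6.84, 6.84, 6.29 and 6.37 in Ti sham hearts, and the groups did not overlap. It fell by 0.54 on the log2 scale (SE 0.13, limma adjusted p = 0.0976). Cxcl1 had 5.22, 5.95, 5.09 and 5.12 in Ti 6.5 cGy hearts, against 5.23, 4.44, 4.84, 4.66 and 4.69 in Ti sham hearts. It rose by 0.56 (SE 0.20, 1.47-fold, limma adjusted p = 0.225), although 1 of the 4 exposed hearts lay above the sham range. Cxcl1 exceeded the 90th percentile of the negative controls on 2 of 72 arrays. Ccl9, a CCR1 ligand of rodents made by macrophages, had 6.94, 6.79, 6.20 and 6.22 in Ti 6.5 cGy hearts, against 6.90, 7.07, 7.03, 7.0 and 6.61 in Ti sham hearts. It fell by 0.47 (SE 0.17, limma adjusted p = 0.244), with 2 of the 4 hearts below the sham range.

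These Ti calls were not settled. With each of 9 hearts left out in turn, Cxcl3 kept its call in 8 fits, Cxcl1 in 4 and Ccl9 in 3. Ti 6.5 cGy replicate 3, which is labelled batch 1 and lay with batch 2, was among the lowest hearts for Cxcl3 and Ccl9, both of which were lower in batch 2. Without it no ligand was called: Cxcl3 differed by -0.46 (limma adjusted p = 0.272), Ccl9 by -0.31 (0.509) and Cxcl1 by +0.65 (0.306). With that array and its Cs counterpart counted in batch 2, Cxcl3 differed by -0.45 (limma adjusted p = 0.158), Cxcl1 by +0.59 (0.226) and Ccl9 by -0.33 (0.364). Within batch 1 the differences were -0.65, +0.58 and -0.36 for Cxcl3, Cxcl1 and Ccl9, and within batch 2, with 1 exposed heart, -0.30, +0.45 and -0.59. Cxcl1 also lost its call without Ti 6.5 cGy replicate 2, its highest heart (+0.37, limma adjusted p = 0.54), or Ti sham replicate 1, 2 or 3. Ccl9 lost its call without Ti 6.5 cGy replicate 2 or Ti sham replicate 1, 3, 4 or 5. Beyond this dose, all 5 Cs 80 cGy hearts also lay below the Cs sham range for Cxcl3, with 6.41, 6.38, 6.40, 6.29 and 5.93, against 6.53, 6.6, 6.59, 6.6 and 6.58 in Cs sham hearts. That difference of -0.30 (SE 0.11) did not pass (limma adjusted p = 0.52).

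**Figure D4:**
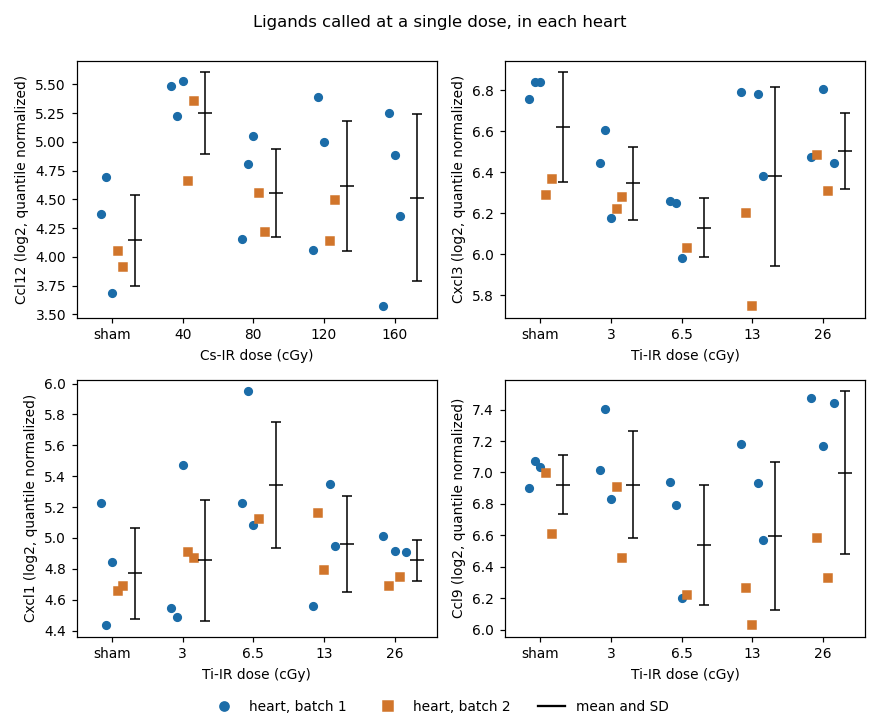
Level in each heart (vertical axes, log2 signal after quantile normalization) of Ccl12 across 137Cs-IR doses and of Cxcl3, Cxcl1 and Ccl9 across 22Ti-IR doses in cGy, with sham at the left of each panel. Blue circles are batch 1, orange squares batch 2, and bars the mean and SD; Ccl12 is high at 40 cGy, and at 6.5 cGy Cxcl3 lies below all sham hearts while 1 Cxcl1 heart lies above them.

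The receptors and signals around the ligands were counted from lists. Of 17 chemokine receptors measured, 12 exceeded the 90th percentile of the negative controls on no array, and only Ccr7 (67 of 72 arrays) and Cxcr4 (62 of 72) did so on most. No receptor was called at any Cs or Si dose. At Ti 6.5 cGy, where 5.6% of all genes were called, 1 of 17 was called, Cxcr2, the receptor of Cxcl1 and Cxcl3, which fell by 0.49 (SE 0.12, limma adjusted p = 0.103). Cxcr2 exceeded the 90th percentile of the negative controls on 0 of 72 arrays. At that dose 1 of 5 scavenger and atypical receptors, Ccrl2, rose by 0.45 (SE 0.14, limma adjusted p = 0.19), and 2 of 12 inducing signals rose, Il1b by 0.41 (SE 0.15, limma adjusted p = 0.236) and Il33 by 0.39 (SE 0.14, limma adjusted p = 0.222). The neutrophil markers averaged 3.88 to 4.50 per heart at Ti 6.5 cGy, against 3.74 to 4.44 in Ti sham hearts, and 4 of 5 exceeded the 90th percentile of the negative controls on no array. Among macrophage markers 2 of 12 rose there, Aif1 by 0.67 and Mertk by 0.35 (SE 0.25 and 0.13, limma adjusted p = 0.236 and 0.248). The fibroblast markers Col3a1 and Col1a1 fell by 0.63 and by 0.38 (SE 0.19 and 0.13, limma adjusted p = 0.16 and 0.212), 2 of 5. The mesothelial marker Wt1 fell by 0.38 (SE 0.14, limma adjusted p = 0.2499), 1 of 4, but 3 of the 4 mesothelial markers had a positive difference. That list averaged 5.80 to 6.30 per heart, against 5.47 to 5.96 in Ti sham hearts. At other heavy-ion doses the endothelial markers Cldn5 (Si 4 cGy, +0.78, SE 0.19, limma adjusted p = 0.212) and Emcn (Ti 13 cGy, +0.42, SE 0.11, limma adjusted p = 0.226) were the list genes called. Their part in the ligand calls was not tested.

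Cxcl13 varied most between hearts of the same group. This ligand of CXCR5 draws B cells and organizes lymphoid follicles. It ran from 2.99 in a Si 8 cGy heart to 9.67 in a Cs 80 cGy heart, with an SD of 1.15 within groups and batches. In Cs 80 cGy hearts it was 6.85, 3.85, 9.67, 7.6 and 8.25, against 5.82, 6.30, 7.29, 4.69 and 4.36 in Cs sham hearts. The difference of +1.55 (SE 0.74) did not pass (limma adjusted p = 0.719), nor did that of +1.20 (SE 0.58) at Ti 3 cGy (0.556). On the values as deposited, Cxcl13 was the 1 ligand called at each of these doses, by +1.68 at Cs 80 cGy (SE 0.31, limma adjusted p = 0.000658) and by +1.43 at Ti 3 cGy (SE 0.46, limma adjusted p = 0.247). The SE of 0.31 lay below the 0.74 of the normalized values, and limma SEs draw on the spread of all genes. That adjusted p therefore does not measure the spread of Cxcl13 between these hearts alone. At the spread of the normalized values, differences of the size seen for Ccl11 were not detectable in Cxcl13. Ccl8, a ligand of CCR8 in the mouse, differed by +0.76 at Cs 80 cGy (SE 0.29, limma adjusted p = 0.576), with 2 of 5 hearts above the sham range.

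The remaining ligands are given by role, as the lowest and highest of the 15 batch-adjusted group means. None of them was called against sham. Of the other CCR3 ligands, Ccl24 was highest in Cs 160 cGy hearts, at 5.99, and lowest in Cs sham hearts, at 5.66 (a difference of +0.38 in the fit, SE 0.16, limma adjusted p = 0.286) and Ccl26 ran from 3.28 in Si 32 cGy to 3.77 in Cs 40 cGy hearts. Of the other CCR2 ligands, Ccl2 ran from 5.28 in Cs 120 cGy to 5.74 in Ti sham hearts and Ccl7 was highest in Cs 40 cGy hearts, at 5.58, and lowest in Si sham hearts, at 5.09. Among the inflammatory CC ligands, Ccl6 ran from 6.24 in Cs 160 cGy to 6.94 in Ti 26 cGy hearts, Ccl5 from 4.53 in Cs 40 cGy to 5.04 in Ti 6.5 cGy hearts, and Ccl4 from 4.33 in Ti 6.5 cGy to 4.75 in Si 32 cGy hearts. The spread between hearts of 1 group and batch was 0.20 for Ccl6, 0.34 for Ccl5 and 0.20 for Ccl4 (SD). At an unadjusted p under 0.05, Ccl6 differed by -0.31 at Cs 160 cGy (SE 0.14, limma adjusted p = 0.345) and by +0.30 at Ti 26 cGy (SE 0.13, limma adjusted p = 0.678).

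The epithelial ligands Ccl25, Ccl27a, Ccl28 and Ccl20 act on CCR9, CCR10 and CCR6 in barrier tissues. Ccl25 ran from 5.84 to 6.31, Ccl27a from 5.77 to 5.99, Ccl28 from 4.90 to 5.26 and Ccl20 from 4.22 to 4.40. Cx3cl1, the membrane-bound fractalkine of endothelium, ran from 5.58 in Ti 3 cGy to 5.93 in Ti sham hearts, and the difference of -0.36 with 4 of 5 hearts below the sham range did not pass (SE 0.11, limma adjusted p = 0.437). Ccl17 and Ccl22, which act on CCR4, ran from 3.63 to 4.19 and from 4.40 to 4.84, and Ccl1, a CCR8 ligand, from 4.04 to 4.50. Ccl19, the second CCR7 ligand, exceeded the negative control median on 46 of 72 arrays and Cxcl17, a mucosal ligand, on 55. The same counts were 54 for Cxcl10 and 30 for Cxcl11, which act on CXCR3 with Cxcl9, and 53, 49 and 36 for the neutrophil attractants Cxcl5, Cxcl2 and Cxcl15. For these last 7 genes differences between groups lie close to the floor of the array. So do those of Ccl26, given above, which exceeded the negative control median on 43 of 72 arrays. At Cs 120 cGy the Ccl21b and Ccl21c signal lay below every sham heart in all 5 hearts, by 0.24 on average (SE 0.10, limma adjusted p = 0.529).

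To see which ligands varied together from heart to heart, Pearson correlations were taken over 72 arrays after group and batch means were removed. They share arrays and normalization and are given as a description. Over 703 pairs the median was 0.04 and the lowest -0.37, and 8 pairs exceeded 0.5. Of these, 3 were among the Ccl21 genes. The others were Ccl6 with Ccl9 (0.66), its neighbor on chromosome 11, Ccl8 with Cxcl13 (0.60) and with Ccl9 (0.57), Cxcl13 with Cxcl16 (0.54), and Ccl20 with Ccl28 (0.50). The ligands most like Ccl11 were Cxcl13 (0.47), Ccl6 (0.45) and Cxcl10 (0.43). Those most like Ccl12 were Ccl9 (0.49), Ccl8 (0.43) and Cxcl9 (0.43). Cxcl3 was most like Ccl28 (0.46), Cxcl14 (0.46) and Cxcl17 (0.33), and Cxcl1 most like Ccl7 (0.36). Cxcl1 and Cxcl3 were thus not among each other's nearest ligands.

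**Figure D5:**
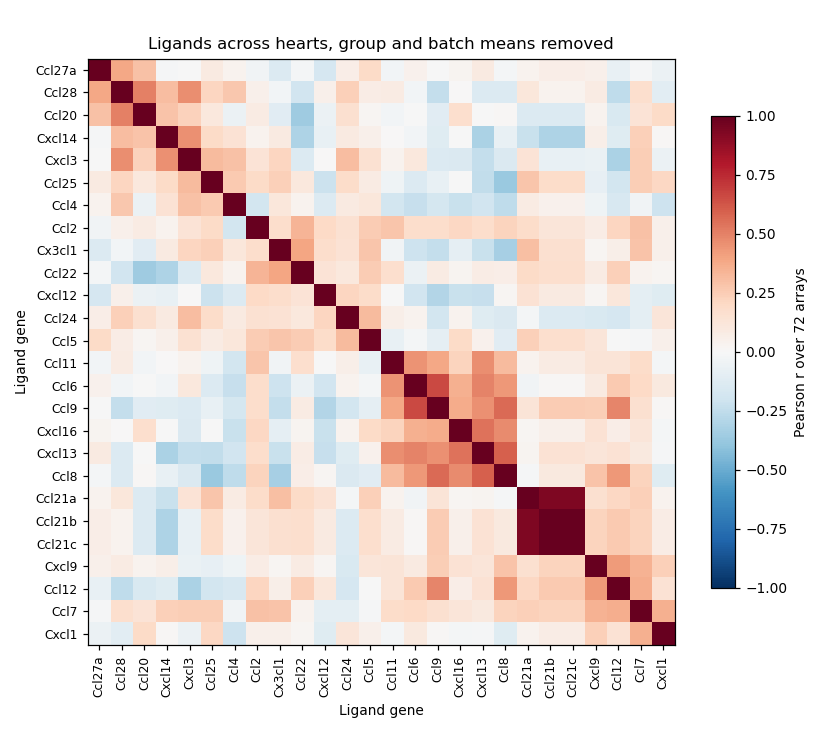
Pearson r over 72 arrays between ligand genes, with group and batch means removed, for the ligands read on most arrays (rows and columns in the same order, placed by likeness). Red is positive and blue negative; the Ccl21 genes form 1 block and Ccl11, Ccl6, Ccl9, Cxcl16, Cxcl13 and Ccl8 another.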

How the data were processed

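Heart RNA was read on 72 arrays of the Clariom S Mouse type, 24 per radiation type, in 2 batches given by the labels. Per the labels and methods, the authors made log2 values by RMA, with background correction and quantile normalization; no source used here states a version. These deposited log2 values had array medians between 4.17 and 6.35 and were therefore quantile normalized again over 22206 transcript-cluster probe sets before any test. Gene symbols came from the platform annotation: 19572 probe sets had 1 symbol, 0 several and 2634 none. Where a gene had several probe sets (55 genes), the brightest on average stood for the gene, giving 19505 genes. Detection was read in the deposited values against the 5222 negative control probe sets of the same array; 1324 positive control sets of similar naming were left out. The number of arrays limits the precision.

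Groups, batch and replicate came from the labels. limma 3.58.1 in R 4.3.3 was fitted per radiation type, with dose group and batch as terms, and genes were called at a Benjamini-Hochberg adjusted p under 0.25 over all genes. Sham groups, exposure effects and batches were compared in a fit of all 72 arrays. Dose was fitted as a line and as a spline (cubic, 3 df, splines 4.3.3). Levels called batch-adjusted had the batch difference removed with the groups kept. The ligands and the gene lists were chosen with earlier results of these data known. All ligands could be named. Values are given in full for those called against sham, and other genes are named from the lists where they were called. Arntl, Ccr3 and marker genes beside the calls, and the ligands described without a call, were chosen after their values were seen. Hearts are separate animals by the study's methods. Alternatives were no batch term, single batches, the 2 arrays that lay with the other batch moved or left out, all 72 arrays in 1 fit, other scalings, leaving out genes that did not reach a log2 value of 5 on 4 or more arrays, trend and robust moderation, a replicate block, a threshold of 0.05 and each heart left out in turn. The scripts were tested on simulated data.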

Additional observations from a re-analysis of the deposited data

Results flagged for a closer look

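The mean effect of exposure on Ccl11 differed between the Cs and the Si groups: the Cs effect exceeded the Si effect by 0.98 (SE 0.23, limma adjusted p = 0.0307). The test stayed past the threshold with any single heart left out (48 of 48 fits). All Cs doses were higher than the Si doses, so radiation type and dose cannot be told apart here. On the values as deposited this contrast of effects was 0.61 (limma adjusted p = 0.478). Cs sham minus Si sham, which enters it, was -0.68, and -0.04 on that scale.

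Single hearts that stood far from the rest of their group, after batch adjustment, were looked for in the 5 called ligands and the 6 with the highest mean. Of 165 groups tested 15 were flagged, and chance flags about 1 in 20. The identical Ccl21b and Ccl21c values are counted for each gene. Cxcl3 gave 5 of them: Cs 40 cGy replicate 3 was low at 6.36, Cs 80 cGy replicate 5 low at 6.03, Si 8 cGy replicate 5 high at 7.46, Ti 6.5 cGy replicate 3 low at 5.89, and Si sham replicate 3 high at 7.24. Ti 6.5 cGy replicate 3 was adjusted as batch 1, although it lay with batch 2. Before this adjustment its Cxcl3 level lay next to that of replicate 4, so this flag depends on the batch label. Ccl12 was low at 3.41 in Si 16 cGy replicate 5, Ccl9 low at 5.37 in Si 8 cGy replicate 5, and Cxcl1 high at 5.52 in Cs 80 cGy replicate 2. Cxcl12 was high at 9.29 in Si 32 cGy replicate 4, Cxcl14 high at 7.30 in Ti 26 cGy replicate 2, and Ccl21a high at 8.06 in Ti 6.5 cGy replicate 2. Ccl21b and Ccl21c, which gave the same values, were high at 8.22 in Cs 80 cGy replicate 4 and low at 7.5 in Ti 13 cGy replicate 3.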

How the results depend on the processing

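Counts are ligands called of 38, with the value of the described fit in brackets. Without a batch term, 0 [1] were called at Cs 40 and at 120 cGy, 0 [3] at Ti 6.5 cGy and 1 [3] in the Cs spline. With batch 1 alone, 0 [1] were called at each of the 4 Cs doses and 1 [3] at Ti 6.5 cGy; with batch 2 alone, 0 [1] at Cs 40 and 120 cGy, 2 [1] at Cs 80 cGy and 0 [3] at Ti 6.5 cGy. These fits hold fewer arrays, and Si in batch 1 and Cs 160 cGy in batch 2 could not be fitted. Moving the 2 arrays to batch 2 gave 1 [3] in the Cs spline, and leaving them out gave 2 [1] at Cs 80 cGy, 0 [3] at Ti 6.5 cGy and 6 [3] in the Cs spline. One fit of 72 arrays gave 0 [1] at Cs 120 cGy and 2 [0] at Si 4 cGy. The filter on dim genes kept 12594 genes and 24 ligands and gave 3 [1] at Cs 160 cGy, 1 [0] at Si 4 cGy, 2 [4] between Si and Ti sham, 2 [1] in the Cs line, 8 [3] in the Cs spline and 1 [0] in the Ti spline. Trend and robust moderation gave 3 [1] at Cs 160 cGy, 7 [3] in the Cs spline and 1 [0] in the Ti spline. At a threshold of 0.05, 0 were called at Cs 40, Cs 120 and Ti 6.5 cGy, between Cs and Si sham, between Si and Ti sham and in the Cs line and spline. Against the 90th percentile of the negative controls 8 [23] ligands were detected on all arrays. The causes were not tested.

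The values as deposited moved the median of all genes by between -0.43 (Cs 160 cGy) and 0.62 (Cs sham minus Si sham). They gave 0 [1] at Cs 40, 120 and 160 cGy, 13 [0] at Si 32 cGy (all lower), 1 [0] at Ti 3 cGy, 8 [3] at Ti 6.5 cGy (all higher, Ccl11 among them, against 1 higher and 2 lower), 33 [3] for Cs minus Si sham, 0 [4] for Si minus Ti sham, 0 [1] for the Cs minus Si effect, 0 [1] in the Cs line, 1 [3] in the Cs spline, 34 [0] and 21 [0] in the Si line and spline, and 19 [0] in the Ti spline. Ccl17 then differed by 0.26 instead of -0.37 between Cs and Si sham. At Cs 80 cGy the 1 ligand called on that scale was Cxcl13, while Ccl11 differed by 1.05 (adjusted p = 0.469) and at 160 cGy by 0.55 (0.368). Aligned array medians gave 0 [1] at Cs 120 cGy, 1 [3] for Cs minus Si sham, 0 [4] for Si minus Ti sham and 1 [3] in the Cs spline, and at Ti 6.5 cGy 2 higher (Ccl11 and Cxcl1) and 1 lower (Cxcl3).

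With each heart left out in turn, counts ran from 0 to 1 at Cs 40 and 120 cGy and Si 4 cGy, from 1 to 2 at Cs 80 and 160 cGy and in the Cs line, from 0 to 4 at Ti 6.5 cGy, from 1 to 4 for Cs minus Si sham, from 0 to 6 for Si minus Ti sham, from 1 to 6 in the Cs spline and from 0 to 1 in the Ti spline. Hearts with the same replicate number did not deviate together (mean r -0.01, -0.01 and 0.02 for Cs, Si and Ti), so they share only a number; with the number as a replicate block, 1 [0] was called at Si 4 cGy, 1 [3] for Cs minus Si sham, 2 [4] for Si minus Ti sham and 2 [1] for the Cs minus Si effect. Signal over background limits 15 ligands, which never exceeded the 90th percentile of the negative controls.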

Other observations

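In the Si 16 cGy group, replicate 1 stood apart in lymphocyte transcripts. Its mean over 7 T and NK cell markers was 6.14 on the batch-adjusted log2 scale, against 3.96 to 4.32 for replicates 2 to 5, and its mean over 4 B and plasma cell markers was 5.77, against 3.89 to 4.31. In the same heart Ccl22, a CCR4 ligand, measured 5.54, the highest of all 72 arrays, and 4.11 to 4.79 in the other 4 hearts. Ccl5, a T cell product, measured 5.32 there and 4.29 to 4.92 in the others. Neither ligand was called at Si 16 cGy.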
